A study of Macaca fascicularis and Mus musculus with 42 samples.

Results

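The 10 genes described here, ERP29, VAPB, SLC41A3, INSR, MAL2, SERPINB6, GJC1, ALG11, PHLDA1 and PHLDB2, were chosen by their RPM in cynomolgus monkey (Macaca fascicularis) cells, where the level in lines with germ cell reporters differed from that in stem cell lines without transgenes. They are 10 of the 26018 entries of the monkey table, each with 1 entry of its symbol, and all 10 passed a filter on low values (10 RPM or more in 2 or more of the 38 monkey libraries), as did 11191 entries in all. RPM are a gene's reads scaled to the same total of reads in every library. Because the difference between the line types chose the members, it is given as a description and carries no test.

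The 33 reporter-line libraries came from cells with 2 transgenes, Blimp1-tdTomato and TFAP2C-EGFP, which report 2 transcription factors of the early germ line (Blimp1 is the protein of PRDM1). Of these, 30 were of the line 656BTAG42 and 3 of 656BTAG63, as labelled. In 28 of them the cells had been induced with the aim of making PGCLC, primordial germ cell-like cells that model in culture the founders of eggs and sperm, with BMP4, SCF, EGF, LIF and Y27632. The medium of induction was GK15, with serum replacement, or aRB27, with the B27 supplement, and cells were sorted on days 2, 4, 6, 8 or 10 as BTAG positive (21 libraries), BT single positive (3) or AG mid positive (4). From the names, BT is taken to stand for the Blimp1-tdTomato signal and AG for that of TFAP2C-EGFP. The other 5 were undifferentiated embryonic stem cells (ESC), labelled as day 0 and as grown in AITS+IF20. The comparison group was ESC without transgenes, also in AITS+IF20: 2 libraries of the line CMK6 and 1 each of the lines 656, 681F and 22. The number 656 is shared by the names of the reporter lines and of 1 transgene-free line, and the labels do not state how the lines are related or how many clones were taken.

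Depth ranged from 1.08 to 7.46 M reads per library in reporter lines and from 1.10 to 4.06 M in transgene-free ESC, and 1 read was worth 0.134 to 0.929 RPM. In 6 reporter-line libraries the PRDM1 level went against the gate in the label: 3 labelled BTAG positive had 0 to 4.90 RPM and 3 labelled ESC or AG mid positive had 145 to 253 RPM. The other 21 sorted libraries that should carry the tdTomato signal had 85.1 to 318 RPM of PRDM1, and the other 6 ESC or AG mid positive libraries 0 to 11.1 RPM. Tests inside the reporter lines therefore used 27 reporter-line libraries. With the reporter-line names read in alphabetical order over the columns, each of the 6 takes a label that its PRDM1 level matches. The comparison of line types does not depend on the gate and used all 33. The 8 pluripotency markers were all read in both kinds of ESC. POU5F1 had 672 to 1151 RPM in the 5 libraries labelled reporter ESC and 1443 to 1927 RPM in transgene-free ESC, DNMT3B had 246 to 1106 RPM in reporter ESC and 1444 to 3367 RPM in transgene-free ESC, and LIN28A went the other way, with 859 to 1962 RPM in reporter ESC and 145 to 993 RPM in transgene-free ESC. The summed level of all 8 pluripotency markers was 3590 to 4049 RPM in reporter ESC and 4850 to 6873 RPM in transgene-free ESC. Their median log2 difference was -0.08, and limma called 0 of 8. By limma 3 of the 8 had an unadjusted p under 0.05, beside 2239 of all 11035 entries tested. POU5F1 and DNMT3B were called lower by edgeR and DESeq2. The 8 fibroblast markers summed to 160 to 523 RPM in the 5 libraries labelled reporter ESC and to 189 to 380 RPM in transgene-free ESC (median 275). In the 4 reporter ESC libraries whose PRDM1 matches the label the sum was 315 to 523 RPM (median 441). Of the 7 mesoderm and amnion markers tested, T alone was called, higher in reporter ESC by limma, edgeR and DESeq2, where limma called 1.43% of all entries higher. Limma called 0 germ, fibroblast, endoderm and neural markers. EdgeR called FOXA2 higher and COL1A2 lower, and DESeq2 called COL1A2 lower and, in opposite directions, SOX17 and KIT. The part of these differences in the members' levels was not tested. Library codes in the titles (MS134 and MS162 for reporter lines, MS116 and MS173 for transgene-free lines) never occur in both kinds of line, so line, transgenes and library series cannot be told apart. Whether the libraries of a group came from separate cultures is not stated, and the p-values below therefore speak of the spread among these libraries, which may be technical.

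The members belong to different parts of cell biology. ERP29 is a protein of the endoplasmic reticulum (ER) lumen that helps secretory proteins to fold, ALG11 is a mannosyltransferase that builds the lipid-linked sugar chain for N-glycosylation at the ER, and VAPB is an ER membrane protein that tethers the ER to other organelles. INSR is the insulin receptor, SLC41A3 is a magnesium carrier of the SLC41 family, and GJC1 is a connexin, the building block of gap junctions. MAL2 acts in apical membrane traffic of epithelia, SERPINB6 is an intracellular inhibitor of serine proteases, PHLDB2 anchors microtubules at the cell cortex, and PHLDA1 is a pleckstrin homology-like protein whose gene responds to growth factor signalling. In pluripotent cells the insulin receptor has a known use, because insulin is a standard supplement of their media.

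ERP29, VAPB, SLC41A3 and INSR were at or near 0 in the reporter lines, both in ESC and after induction, while each was read in every transgene-free library. In a 3′ library a value of 0 says that no read was assigned to that gene's entry, and whether both kinds of line were counted against the same annotation is not stated. Of the 10 members, these 4 had groups that did not overlap over 33 and 5 libraries, all of them lower in reporter lines. This held for 1.24% of all entries past the filter, 0.894% with the reporter lines lower and 0.348% with them higher. With the 27 libraries whose PRDM1 matches the gate, GJC1 and ALG11, higher in reporter lines, did not overlap either, which made 6 of 10, against 1.46% of all entries (1.02% lower and 0.438% higher).

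ERP29 (gene ID 101925285) had a lowest level and a median of 0 RPM and a highest of 0.62 RPM in reporter-line libraries, with 0 in 30 of 33. In transgene-free ESC it had 67.4 and 81.9 RPM in the CMK6 libraries, 43.8 in line 656, 88.99 in 681F and 53.96 in line 22. All transgene-free libraries thus lay far above every reporter-line library. Counted in reads, there were 3 in 88.5 M in reporter lines and 1015 in 15.5 M in transgene-free ESC, a rate 1934-fold higher in transgene-free ESC (exact 95% interval 659.9 to 9394, which covers counting error only). This interval and those of VAPB, INSR and SLC41A3 pool the reads of all libraries of a kind. Since this contrast chose the members, the intervals are a description and no test of it.

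VAPB (gene ID 102140094) likewise had a lowest level and a median of 0 RPM in reporter-line libraries, a highest of 1.17 RPM, and 0 in 31 of 33. Transgene-free ESC had 97.4 and 44.02 RPM in CMK6, 44.04 in line 656, 19.5 in 681F and 13.8 in line 22. The transgene-free lines themselves spread widely, and yet the lowest of them stood above every reporter-line library. The reads were 3 in reporter lines and 533 in transgene-free ESC, a rate 1016-fold higher in the transgene-free libraries (345.6 to 4940).

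INSR (gene ID 102139081) had a lowest level and a median of 0 RPM and a highest of 0.54 RPM in reporter-line libraries, with 0 in 30 of 33. In transgene-free ESC the receptor had 20.0 and 16.2 RPM in CMK6, 8.36 in line 656, 19.8 in 681F and 7.26 in line 22. Again no library of one kind reached the range of the other. From 3 and 202 reads the rate was 384.9-fold higher in transgene-free ESC (129.8 to 1882).

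SLC41A3 (gene ID 101865552) had a lowest level and a median of 0 RPM and a highest of 5.28 RPM in reporter-line libraries. Its levels in transgene-free ESC were 15.5 and 10.5 RPM in CMK6, 21.7 in line 656, 20.6 in 681F and 28.02 in line 22. The 2 ranges stayed apart, with the smallest gap of these 4 genes. The 19 reads in reporter lines against 318 in transgene-free ESC gave a rate 95.7-fold higher in the transgene-free libraries (60.3 to 161). All 19 reads lay in 5 libraries labelled BTAG positive: 9 reads in aRB27 day 6 library 3, 5 in GK15 day 6 library 2, 3 in GK15 day 6 library 1, and 1 each in aRB27 day 6 library 1 and GK15 day 4 library 2. Of the 5, GK15 day 6 library 2 and GK15 day 4 library 2 are among the 6 whose PRDM1 goes against the gate. The 28 others, including all 5 libraries labelled reporter ESC, had none. With the names read in alphabetical order over the columns, GK15 day 6 library 2 is instead a reporter ESC library.

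**Figure D1:**
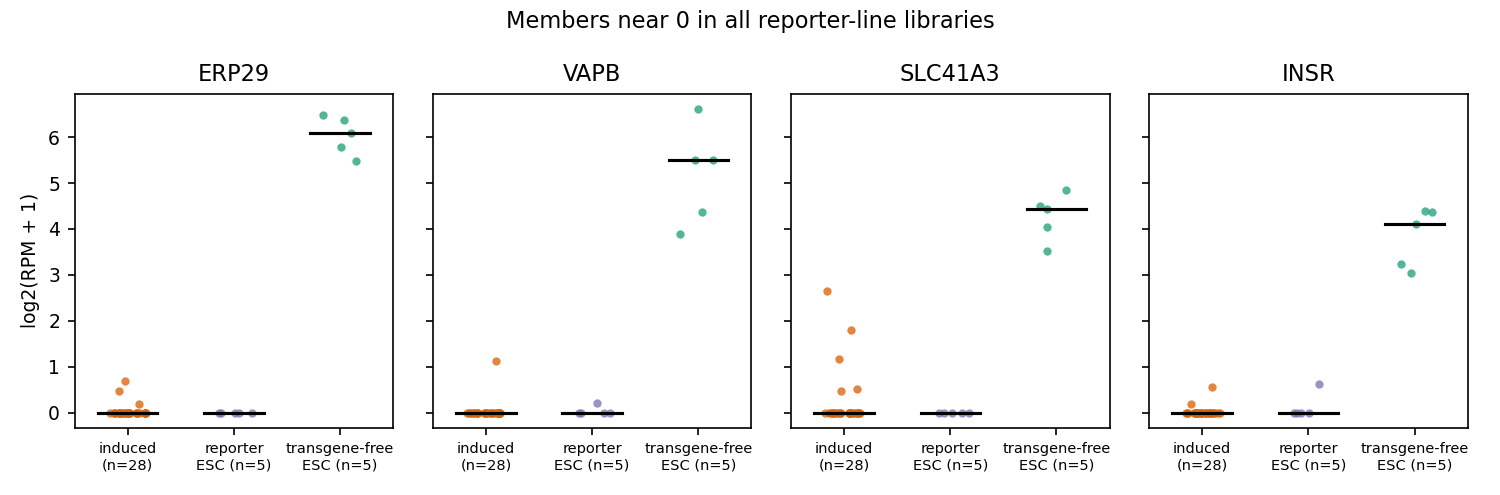
Level of ERP29, VAPB, SLC41A3 and INSR as log2(RPM + 1) in induced reporter-line cells (28 libraries), reporter ESC (5) and transgene-free ESC (5); each point is a library and each bar a median. All medians of induced cells and reporter ESC are at 0, and no reporter-line library reaches the lowest transgene-free library.

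Levels this far apart were rare in the table. An entry had a median of 0 over the 33 reporter-line libraries and at least 5 RPM in all 5 transgene-free libraries in 14 cases, 0.125% of the entries past the filter, and these 4 members were among them. An unnamed entry, LOC102140476, was at 0 in all 33 reporter-line libraries against 7.63 to 47.2 RPM in transgene-free ESC; it and the other 9 had been picked out after their values were seen. Those 9 each reached 8.79 RPM or more in at least 1 reporter-line library, above the highest value of any of the 4 members. In the opposite sense, with a median of 0 in transgene-free ESC and at least 5 RPM in every reporter-line library, there was no entry. These 4 members passed the filter on low values through the transgene-free libraries alone, since within the 27 reporter-line libraries only the other 6 members did, so tests inside the reporter lines say nothing about them beyond their staying near 0. Of the other 6, MAL2 passed within the reporter lines only through 2 BT single positive libraries, with 127 and 42.3 RPM.

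MAL2 and SERPINB6 were lower in reporter lines but were read there. MAL2 (gene ID 101866414) had a lowest level of 0, a median of 2.15 and a highest of 127 RPM in reporter-line libraries. In transgene-free ESC it had 130 and 63.5 RPM in CMK6, 12.3 in line 656, 33.6 in 681F and 25.9 in line 22. The groups overlapped through 2 BT single positive libraries, with 127 and 42.3 RPM, and the other 31 reporter-line libraries were below the lowest transgene-free one. Among ESC alone, MAL2 had 1.91, 3.45, 3.52, 2.15 and 2.40 RPM in reporter ESC, all below the 12.3 RPM of line 656. The difference of mean log2(RPM + 1) between the 33 and the 5 libraries was -3.56.

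SERPINB6 (gene ID 101866493) had a lowest level of 2.91, a median of 18.1 and a highest of 130 RPM in reporter-line libraries, against 385 and 240 RPM in CMK6, 88.3 in line 656, 204 in 681F and 180 in line 22. Here 31 of 33 reporter-line libraries were below line 656, the lowest transgene-free library, and the 2 exceptions were labelled GK15 BTAG day 2 (library 2, one of the 6 whose PRDM1 goes against its gate) and aRB27 AG mid day 2. Reporter ESC had 34.0, 37.5, 22.0, 52.3 and 19.6 RPM, all below the transgene-free range. Its difference of mean log2(RPM + 1) was -3.33 over 33 and 5 libraries.

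GJC1 and ALG11 were the members that stood higher in reporter lines whether or not the cells had been induced. GJC1 (gene ID 102124903) had a lowest level of 12.3, a median of 36.9 and a highest of 87.9 RPM in reporter-line libraries, and 11.8 and 10.5 RPM in CMK6, 9.35 in line 656, 12.5 in 681F and 10.6 in line 22. In 32 of 33 reporter-line libraries GJC1 was above every transgene-free library, and the difference of mean log2(RPM + 1) was 1.68. ALG11 (gene ID 102145860) had a lowest level of 16.7, a median of 60.3 and a highest of 82.9 RPM in reporter lines, against 9.60 and 23.1 RPM in CMK6, 23.02 in line 656, 15.8 in 681F and 16.3 in line 22. It too was above all transgene-free libraries in 32 of 33, with a difference of 1.66, and the 1 exception was GK15 BTAG day 4 library 2, whose PRDM1 goes against its gate. ALG11 varied little inside the reporter lines, with a mean of 57.5 ± 14.6 RPM (SD, n = 33).

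PHLDA1 and PHLDB2 stood apart in ESC and not over all reporter-line libraries. PHLDA1 (gene ID 102138124) had 98.7, 151, 113, 161 and 21.6 RPM in reporter ESC, the last in the ESC library whose PRDM1 goes against its label, and 41.9 and 40.8 RPM in CMK6, 42.1 in line 656, 28.8 in 681F and 43.1 in line 22. The 4 ESC libraries with the PRDM1 level of their label thus lay above, and the fifth below, the transgene-free range. Over all 33 reporter-line libraries PHLDA1 ran from 4.98 RPM through a median of 24.1 to 265 RPM, with 11 libraries above and 20 below the transgene-free range, and the difference of mean log2(RPM + 1) was -0.15, while the mean RPM was 61.4 in reporter lines and 39.3 in transgene-free ESC. PHLDB2 (gene ID 102122737) had 38.8, 57.0, 33.4, 57.1 and 34.4 RPM in reporter ESC and 13.7, 13.0, 17.2, 17.9 and 13.2 RPM in transgene-free ESC (CMK6, CMK6, 656, 681F and 22). All 5 reporter ESC libraries of PHLDB2 were above the transgene-free range, while over all 33 it ran from 6.77 through 20.4 to 107 RPM, with 19 above and 9 below. Of the 10 members, 9 had groups that did not overlap between the 5 reporter and the 5 transgene-free ESC libraries, 6 lower and 3 higher in reporter ESC; this held for 4.63% of all entries (2.73% lower and 1.89% higher). With the 4 reporter ESC libraries that match their label it was all 10, 6 lower and 4 higher, against 6.38% of entries (3.78% lower and 2.6% higher).

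**Figure D2:**
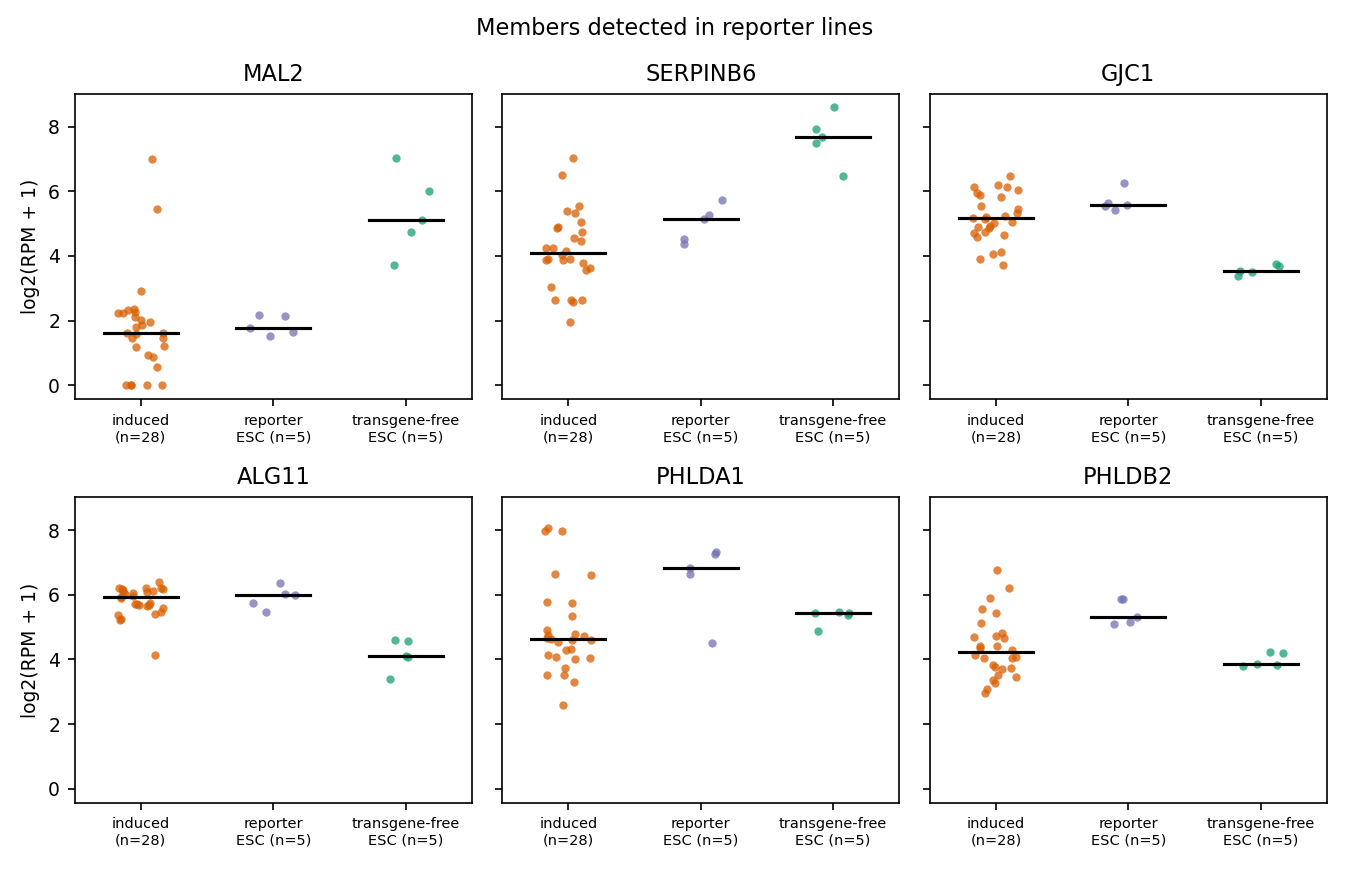
Level of the other 6 members as log2(RPM + 1) in induced reporter-line cells (28 libraries), reporter ESC (5) and transgene-free ESC (5); each point is a library and each bar a median. MAL2 and SERPINB6 are lower in reporter lines apart from a few libraries, GJC1 and ALG11 are higher in 32 of 33, and PHLDA1 and PHLDB2 stand higher in reporter ESC than in transgene-free ESC, with a single low PHLDA1 library at 21.6 RPM.

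The difference held against line 656, which shares its number with the reporter lines. Line 656 was the lowest transgene-free library for ERP29 and for MAL2, SERPINB6 and GJC1, and the highest for none of the 10. It had 43.8 RPM of ERP29, 44.04 of VAPB, 21.7 of SLC41A3 and 8.36 of INSR, each above every reporter-line library. Both reporter lines, as labelled, shared the pattern. With the names read in alphabetical order over the columns, the highest SLC41A3 level, 5.28 RPM, falls to 656BTAG63 instead of 656BTAG42. The 3 libraries labelled 656BTAG63 had at most 0.13 RPM of ERP29 and of INSR, 0 of VAPB and at most 2.49 of SLC41A3, and the 30 labelled 656BTAG42 had at most 0.62, 0.54, 1.17 and 5.28 RPM of ERP29, INSR, VAPB and SLC41A3. It also held in both title codes of the reporter lines. The 7 MS134 libraries had medians of 0 RPM for each of these 4 genes, as had the 26 MS162 libraries.

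Of the 5 members past the low-value filter of that fit, 0 passed the test between 656BTAG63 and 656BTAG42 (background 0%). It was made with 2 libraries labelled 656BTAG63 in reporter ESC and aRB27 BTAG day 6. With the names read in alphabetical order over the columns, both are of 656BTAG42 and aRB27 BTAG day 6 library 3 is of 656BTAG63. The lines were not compared under that reading. By limma's unadjusted p, 1 of the 5, PHLDA1, was under 0.05, with a log2 difference of 0.64 ± 0.29 (SE) and a Benjamini-Hochberg adjusted p of 1.0, and edgeR and DESeq2 also called 0 of 5.

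The genes next to the members were also compared between the kinds of ESC, beside the same counts over all entries. By the order of genes on the assembly T2T-MFA8v1.1, to which 20272 of the 26018 entries were matched by gene ID, the 5 genes on each side of the 10 members made 100 genes. No member was a neighbour of another. Of the 44 neighbours that could be tested between reporter ESC (4 libraries) and transgene-free ESC (5), 0 were higher and 1 was lower, while 1.43% of all entries were called higher and 1.49% lower, 2.92% in all. By limma 8 of the 44 had an unadjusted p under 0.05, as had 2239 of all 11035 entries tested. Of those 11035, edgeR called 365 and DESeq2 529. Of the neighbours edgeR also called NQO2 alone, and DESeq2 called 4, all lower. These were NQO2 and SERPINB1 beside SERPINB6, ENPP2 beside MAL2 and LOC107126444 beside VAPB. The median log2 difference of the neighbours was 0.03, as was that of all entries.

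The neighbour that passed was NQO2, a quinone reductase gene next to SERPINB6. NQO2 had 53.8 RPM in reporter ESC and 157 RPM in transgene-free ESC on average, a log2 difference of -1.38 (adjusted p = 0.024, limma). Over all 33 reporter-line libraries it ran from 4.52 to 67.8 RPM, below the 73.3 to 274 RPM of transgene-free ESC. SERPINB1 and SERPINB9, protease inhibitors of the same family that lie on the other side of SERPINB6, had log2 differences of -1.55 and -0.82 that did not pass (adjusted p = 0.067 and 0.26, limma), though DESeq2 called SERPINB1. Beside ERP29, NAA25 differed by 0.16, TRAFD1 by 0.34, HECTD4 by -0.71, RPL6 by 0.01 and PTPN11 by 0.15 on the log2 scale, and none passed (adjusted p = 0.14 for HECTD4, limma). The nearest tested neighbours of ALG11, ATP7B and UTP14C, had log2 differences of 0.65 and 0.80 and did not pass (adjusted p = 0.27 and 0.11, limma).

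**Figure D3:**
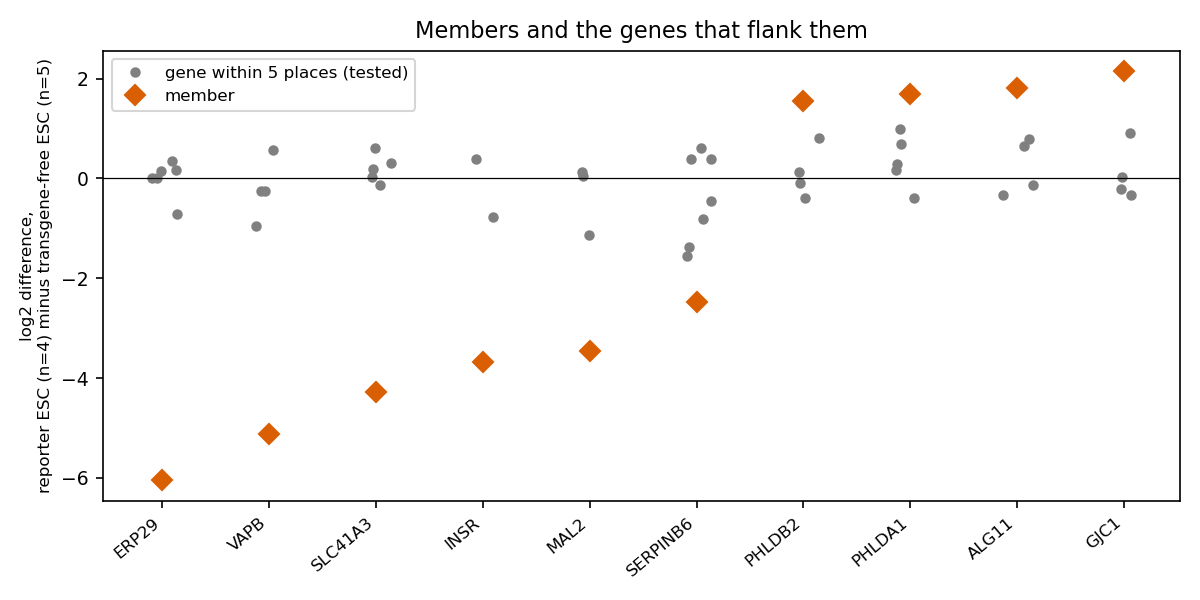
Log2 difference of reporter ESC (4 libraries) minus transgene-free ESC (5 libraries) on the log2(RPM + 1) scale, for each member (diamond) and for the tested genes within 5 places of it (grey points). The neighbours lie between -1.55 and 0.99, and the 1 called by limma is NQO2, beside SERPINB6, at -1.38.

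Genes that work with the members were compared between reporter ESC and transgene-free ESC from 9 lists, on ER folding, N-glycan assembly, ER contact sites, insulin and IGF signalling, connexins, magnesium transport, the PHLD family with the cortical microtubule platform, MARVEL and TPD52 proteins, and clade B serpins. Of 129 genes, 120 had an entry and 93 could be tested, and 0 were higher and 2 lower, where 1.43% of all entries were called higher and 1.49% lower. The 2 were DPAGT1, the enzyme that starts the lipid-linked sugar chain that ALG11 extends, with 20.3 ± 1.21 RPM in reporter ESC and 57.0 ± 28.9 RPM in transgene-free ESC (SD, n = 4 and 5; log2 difference -1.34 ± 0.29, adjusted p = 0.012, limma), and STARD3, a sterol transporter that binds VAPB, with 14.7 ± 5.83 RPM in reporter ESC and 29.4 ± 7.84 RPM in transgene-free ESC (-1.01 ± 0.28, adjusted p = 0.045, limma). DPAGT1 was also called by edgeR and DESeq2, and STARD3 by neither. Of the 93 genes, 17 had an unadjusted p under 0.05 by limma, as had 2239 of all 11035 entries tested. Of the 93, edgeR called 1 and DESeq2 3, the other 2 being GRB14 and SERPINB1, all lower. Over all 11035 entries edgeR called 365 and DESeq2 529.

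By limma the other lists had no call. The counts below of genes at an unadjusted p under 0.05 stand beside 2239 of all 11035 entries tested. In the ER folding list 0 of 16 tested genes were called (1 at an unadjusted p under 0.05), with log2 differences between -0.83 and 0.50 and a median of -0.06, beside 0.03 over all entries. In the insulin and IGF list 0 of 13 were called (5 at an unadjusted p under 0.05), with a median of 0.29, and in the magnesium list 0 of 11 (1 at an unadjusted p under 0.05), with a median of -0.09. Of the 4 connexins tested other than GJC1, 0 were called and 0 had an unadjusted p under 0.05, with differences between 0.07 and 0.90. The PHLD list had 0 of 8 called (0 at an unadjusted p under 0.05) and a median of -0.04, the MARVEL and TPD52 list 0 of 9 (3) and a median of 0.19, and the clade B serpins 0 of 2 (1) and a median of -1.19. The lists with DPAGT1 and STARD3 had medians of 0.04 over 16 genes and 0.01 over 14. In these lists edgeR made no call other than DPAGT1.

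Inside the reporter lines, several members changed as ESC became BTAG positive cells. These tests use the reporter ESC libraries, which also entered the choice of the members, so a fall of a gene that was high in reporter ESC is not independent of that choice, and both media share the same 4 ESC libraries. The 4 near-zero genes could not fall and are left out of the counts, which are over the 6 members past the filter within the reporter lines. MAL2 is among the 6 only through BT single positive libraries and was low in ESC as well. On day 6 in GK15 (2 libraries) 4 of the 6 were lower and 0 higher than in ESC; of all entries, 9.89% were called lower and 12.2% higher, 22.1% in all. On day 6 in aRB27 (4 libraries) 3 of the 6 were lower and 0 higher; of all entries, 12.8% were called lower and 12.2% higher, 25% in all. Since the baseline had a part in the choice of the members, nothing is read from these counts against those shares. By edgeR and DESeq2 the same numbers were called in both media.

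PHLDA1 changed most. It had 15.0 and 24.1 RPM on day 6 in GK15 and 8.89, 23.5, 15.8 and 10.6 RPM in aRB27, against 98.7, 151, 113 and 161 RPM in ESC. The ranges were far apart in both media. The log2 differences of PHLDA1 were -2.69 ± 0.48 in GK15 (SE, adjusted p = 1.6e-04, limma) and -3.14 ± 0.39 in aRB27 (adjusted p = 1.0e-06). With all libraries as labelled, PHLDA1 no longer passed in GK15 (-0.94, adjusted p = 0.63, limma), where GK15 day 6 library 2 entered with 265 RPM and reporter ESC library 5 with 21.6 RPM, both with a PRDM1 level at odds with the label.

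SERPINB6 had 2.91 and 21.1 RPM on day 6 in GK15, and 7.19, 4.96, 5.28 and 5.29 RPM in aRB27, against 34.0, 37.5, 22.0 and 52.3 RPM in ESC. All induced libraries were below the lowest ESC library, by little in 1 GK15 library. The log2 differences of SERPINB6 were -1.95 ± 0.57 in GK15 (adjusted p = 0.014, limma) and -2.44 ± 0.47 in aRB27 (adjusted p = 2.6e-04). In GK15 the call rested on library 1, without which the difference was -0.70 (adjusted p = 0.57).

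PHLDB2 had 15.8 and 24.1 RPM on day 6 in GK15 and 6.77, 12.7, 9.97 and 20.5 RPM in aRB27, against 38.8, 57.0, 33.4 and 57.1 RPM in ESC. The groups of PHLDB2 did not overlap in either medium. Its log2 differences were -1.17 ± 0.40 in GK15 (adjusted p = 0.033, limma) and -1.88 ± 0.33 in aRB27 (adjusted p = 8.2e-05). The GK15 call of PHLDB2 was lost when either GK15 library or ESC library 2 or 4 was left out, at differences of -0.88 without GK15 library 1, -1.46 without GK15 library 3, -1.07 without ESC library 2 and -1.06 without ESC library 4.

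GJC1 had 16.2 and 25.3 RPM on day 6 in GK15 and 24.1, 28.2, 32.3 and 39.0 RPM in aRB27, against 49.1, 45.7, 41.8 and 75.96 RPM in ESC. All induced libraries lay below ESC. The log2 difference of GJC1 was -1.31 ± 0.34 in GK15 (adjusted p = 0.0064, limma), and in aRB27 it was -0.75 ± 0.28 (adjusted p = 0.045), short of the 2-fold threshold. Without GK15 library 1 the GK15 difference was -1.002 and did not pass (adjusted p = 0.15, limma). None of the 4 GK15 calls was made with all libraries as labelled, where a single entry of the whole table was called.

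ALG11 and MAL2 did not pass in either medium. The 4 near-zero genes were at or near 0 in ESC and on day 6, and nothing is read from their tests. ALG11 had 50.9 and 52.2 RPM on day 6 in GK15 and 52.0, 71.8, 59.2 and 72.6 RPM in aRB27, against 62.3, 80.7, 43.2 and 64.1 RPM in ESC, overlapping throughout. MAL2 had 3.33 and 6.63 RPM on day 6 in GK15 and between 0 and 1.76 RPM in aRB27, against 1.91 to 3.52 RPM in ESC. The aRB27 libraries were thus just below ESC, and 1 GK15 library was within and 1 above its range.

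Along the course of BTAG positive cells from day 2 to day 10 (18 libraries), 1 of the 5 members that passed the filter there changed, GJC1, where 9.87% of entries were called lower and 6.43% higher, 16.3% in all. The slope of GJC1 was -0.142 ± 0.039 log2 units per day (SE, adjusted p = 0.0099, limma, with the medium as a covariate). By edgeR (-0.122) and DESeq2 (-0.124), and with a pseudocount of 10 (-0.113), it was under the 2-fold change over 8 days that a call needs. In GK15 it had 55.3 RPM on day 2, 35.8 on day 4, 16.2 and 25.3 on day 6, 15.8 and 36.9 on day 8 and 13.8 and 29.4 on day 10. In aRB27 it had 69.5 and 58.5 RPM on day 2, 31.1 and 43.0 on day 4, 24.1 to 39.0 on day 6, 35.0 on day 8 and 28.7 on day 10. Most of the fall lay between day 2 and day 6 in both media. These days are as labelled. With the names read in alphabetical order over the columns, the aRB27 library of day 8 takes day 6. The aRB27 library of day 10 then takes day 8, and aRB27 day 6 library 2 takes day 10. Without the 9 libraries whose group changes under that reading, the slope of GJC1 was -0.173 (adjusted p = 0.014, limma). Without GK15 day 2 library 1 the slope was -0.118 and did not pass (adjusted p = 0.067, limma), and with median-of-ratios scaling it was -0.123, under that change as well. That scaling moved the median of all entries over 8 days to -0.02, against -0.17, and the calls over all entries to 795 higher and 752 lower, against 636 higher and 976 lower. SERPINB6 had a slope of -0.175 ± 0.073, PHLDB2 of -0.092 ± 0.051 and PHLDA1 of -0.063 ± 0.057 per day, and none of these passed (adjusted p = 0.075, 0.18 and 0.43, limma), although SERPINB6 did with the title code as a covariate (-0.169, adjusted p = 0.032, limma). ALG11 had a slope of 0.027 ± 0.029 per day (adjusted p = 0.52, limma).

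**Figure D4:**
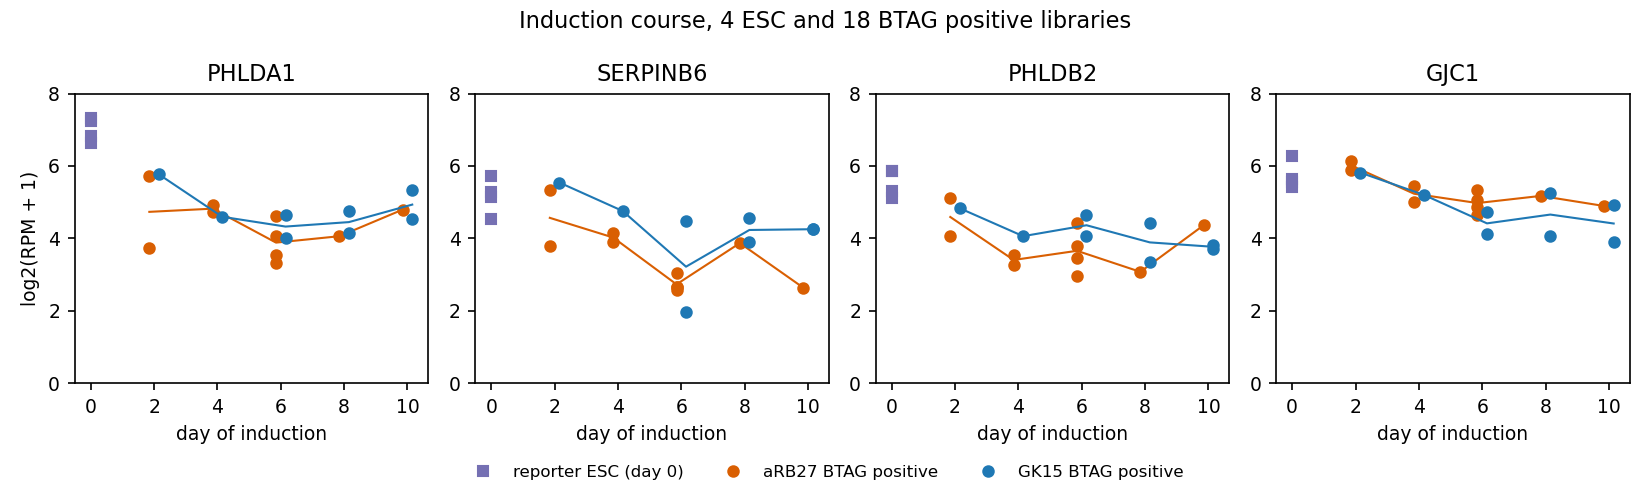
Level of PHLDA1, SERPINB6, PHLDB2 and GJC1 as log2(RPM + 1) by day of induction in reporter ESC (day 0, 4 libraries, squares) and BTAG positive cells in aRB27 and GK15 (18 libraries, circles; lines join the mean of each day). PHLDA1 is lower on day 2 than in ESC in each library, while GJC1 on day 2 is within the range of ESC and lower later.

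The medium made no difference that passed. Averaged over days 2, 4 and 6, 0 of the 6 members past the filter within the reporter lines differed between aRB27 and GK15 BTAG positive cells (background 0.0272%). PHLDB2 was nearest to a call, with a log2 difference of -0.53 ± 0.30 (SE, adjusted p = 1.0, limma), and 0 of the 6 had an unadjusted p under 0.05. By edgeR and DESeq2 0 of the 6 were called as well, with 0 under an unadjusted 0.05.

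MAL2 and PHLDB2 were higher in BT single positive than in BTAG positive cells, a comparison added after the members' values were seen. In aRB27 on days 2 and 4 these were 2 of the 6 members past the filter within the reporter lines, and 0 were lower. Of all entries 6.89% were called higher and 5.94% lower, 12.8% in all, and as the comparison was picked from the values, nothing is read from the count. MAL2 had 127 RPM on day 2 and 3.98 and 42.3 RPM on day 4 in BT single positive cells, against 0 and 0.49 RPM on day 2 and 0 and 2.49 RPM on day 4 in BTAG positive cells. All 3 BT libraries were above all BTAG libraries, by little in 1 of them. The log2 difference of MAL2 was 4.84 ± 0.73 (SE, adjusted p = 3.9e-05, limma). MAL2 passed the filter within the reporter lines only through the BT libraries with 127 and 42.3 RPM. Its p-value is therefore not independent of how it entered the test, and it is given as a description. It was 2.98 on day 4 alone, without the lone BT library of day 2.

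PHLDB2 had 107 RPM on day 2 and 45.8 and 73.4 RPM on day 4 in BT single positive cells, against 33.9 and 15.6 RPM on day 2 and 8.64 and 10.6 RPM on day 4 in BTAG positive cells. Those groups did not overlap either. The log2 difference of PHLDB2 was 2.32 ± 0.36 (SE, adjusted p = 6.8e-05, limma) and 2.48 on day 4 alone. GJC1, with 72.1, 64.7 and 87.9 RPM in BT libraries against 69.5, 58.5, 31.1 and 43.0 RPM in BTAG libraries, did not pass (0.60 ± 0.31, adjusted p = 0.25).

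The BT libraries also held markers of another cell type. The 5 endoderm markers AFP, APOA1, APOA2, TTR and FOXA2, all with an entry, summed to 1429 RPM in the BT library of day 2 and to 123 and 391 RPM in those of day 4, against 47.3, 22.9, 25.9 and 16.8 RPM in the BTAG libraries. FOXA2, an endoderm transcription factor, had 114 to 170 RPM in BT libraries and 11.2 to 42.1 RPM in BTAG libraries, while AFP, APOA2 and TTR were each at 0 in 1 BT library. The germ cell markers summed to 654 to 1058 RPM in BT and 1782 to 2277 RPM in BTAG libraries. MAL2 and PHLDB2 were both in the same order as the endoderm markers over the 3 BT libraries, and the part of those cells in their levels was not tested. In bulk libraries fewer cells of a type and less RNA per cell cannot be told apart.

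**Figure D5:**
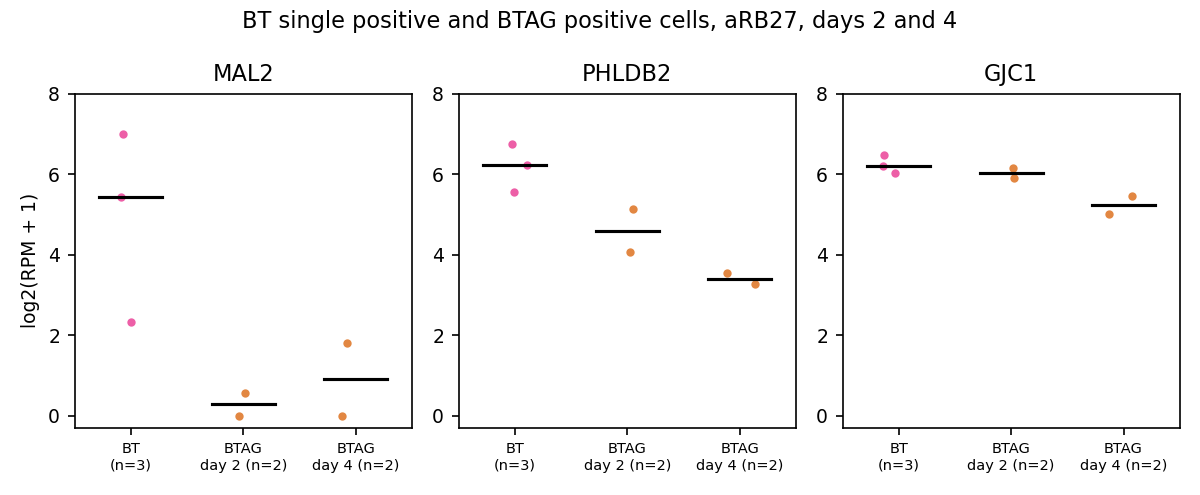
Level of MAL2, PHLDB2 and GJC1 as log2(RPM + 1) in aRB27 BT single positive cells (days 2 and 4, 3 libraries) and BTAG positive cells of day 2 and of day 4 (2 libraries each); each point is a library and each bar a median. MAL2 and PHLDB2 are higher in every BT library than in every BTAG library, and GJC1 overlaps.

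Genes of the same lists were also compared between day 6 and ESC, where 22.1% of all entries were called in GK15 and 25% in aRB27, with 12.2% higher in each medium and 9.89% and 12.8% lower in GK15 and aRB27. Of the insulin and IGF list, in which INSR itself was near 0 throughout, 2 of 13 genes were higher and 4 lower on day 6 than in ESC in each medium. IGF1R, the receptor for insulin-like growth factor, had log2 differences of -2.11 ± 0.35 in GK15 and -2.02 ± 0.29 in aRB27 (SE). IRS1, an adaptor of both receptors, had differences of -2.98 ± 0.54 in GK15 and -3.90 ± 0.44 in aRB27. GRB14, an inhibitory adaptor of the insulin receptor, rose by 3.72 ± 0.39 in GK15 and 3.23 ± 0.31 in aRB27, and FOXO1, a transcription factor that this signalling restrains, was lower, with -1.56 ± 0.43 in GK15 and -1.59 ± 0.35 in aRB27. All of these passed limma's test in both media.

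Of the magnesium list, 4 of 11 in GK15 and 5 of 11 in aRB27 were higher and 0 lower. For this list and those below, 12.2% of all entries were called higher in each medium, and 9.89% in GK15 and 12.8% in aRB27 lower. SLC41A2, a family member of SLC41A3, was higher by 4.48 ± 0.59 in GK15 and 3.69 ± 0.49 in aRB27 on the log2 scale, SLC41A1 by 1.41 ± 0.31 and 1.33 ± 0.25, MAGT1 by 1.42 ± 0.28 and 1.19 ± 0.23, and TRPM6, a channel, by 2.97 ± 0.44 and 2.86 ± 0.36. Among the PHLD genes PHLDA3 was higher by 3.35 ± 0.37 in GK15 and 2.996 ± 0.30 in aRB27, opposite in direction to PHLDA1, and KIF21A, a kinesin of the cortical platform that PHLDB2 belongs to, was lower, with -2.07 ± 0.72 in GK15 and -2.23 ± 0.59 in aRB27. Of the ER folding list, 3 of 16 in GK15 and 2 of 16 in aRB27 were higher and 0 lower, among them DNAJB11, a chaperone partner of the ER lumen, at 1.14 ± 0.23 and 1.12 ± 0.18 and SDF2L1 at 1.56 ± 0.42 and 1.75 ± 0.34 in GK15 and aRB27, and PDIA6 at 1.42 ± 0.42 in GK15. Of the N-glycan list only ALG6, a glucosyltransferase of the same sugar chain, was called in both media, at -1.32 ± 0.35 in GK15 and -1.10 ± 0.28 in aRB27. TPD52, whose protein binds MAL2, was higher by 2.74 ± 0.26 in GK15 and 2.46 ± 0.21 in aRB27, and TPD52L1 by 1.86 ± 0.51 and 1.28 ± 0.41, while CMTM4 was called in GK15 alone (1.06 ± 0.31) and CMTM3 in aRB27 alone (-1.08 ± 0.25), differences between media that were not tested. The connexin GJA5 was higher by 3.63 ± 0.72 in GK15 and 2.01 ± 0.59 in aRB27, where GJC1 was lower. In the ER contact list OSBPL10 was lower, with -1.33 ± 0.49 in GK15 and -1.49 ± 0.40 in aRB27, and among clade B serpins SERPINB9 was lower in aRB27 (-2.37 ± 0.43).

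The entries whose log2 level ran most like that of each member over the 38 monkey libraries were, for the near-zero genes, mostly each other. Pearson's r was 0.99 between ERP29 and INSR, 0.97 between VAPB and INSR and between VAPB and ERP29, 0.92 between SLC41A3 and ERP29, and 0.98 between ERP29 and LOC102140476. VAPB and INSR both had MOK as their most opposite entry (-0.88 and -0.90), ERP29 had LOC102130365 (-0.88), and SLC41A3 had EP300 (-0.82), with IZUMO2 second in likeness (0.92). These values rest on the gap between 33 and 5 libraries that chose the members, and the libraries share depth and processing, so they are a description only.

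The other 6 members had lower values of r with their nearest entries. PHLDA1 was most like THBS1 (0.89) and TIMP1 (0.83), which encode a matrix protein and a metalloproteinase inhibitor, and most opposite to PRR16 (-0.79). SERPINB6 was most like VAT1 (0.84) and FHL1 (0.80) and most opposite to KITLG (-0.81), the gene of the KIT ligand. GJC1 was nearest to ATXN1L (0.80) and WBP5 (0.795) and farthest from MAP7 (-0.80). MAL2 was nearest to CRYM (0.79) and FDXR (0.76) and farthest from STARD13 (-0.82), and ALG11 was nearest to FN3KRP (0.78) and PICALM (0.78) and farthest from CRB3 (-0.81). PHLDB2 was nearest to MACF1 (0.78), a linker of microtubules and actin, and MAP7D1 (0.77), and farthest from CDKL2 (-0.79). Within the 33 reporter-line libraries HNF4A, an endoderm and liver transcription factor, was the entry most like MAL2 (0.84), and ZEB1 the one most like GJC1 (0.87). MAL2 had at most 6.63 RPM there apart from the BT libraries with 127 and 42.3 RPM, so its r leans on those. Both pairs are examples, and the nearest entries of the other members over these 33 libraries are not named.

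The 4 mouse PGCLC libraries were from the line R8, with the transgenes Blimp1-membraneVenus and Dppa3-ECFP. Counted against another annotation, they held 9 of the 10 symbols. Erp29 had 107 and 132 RPM on day 4 and 133 and 119 RPM on day 6, Vapb 26.1, 21.7, 24.3 and 21.8 RPM, and Insr 10.2, 8.40, 7.14 and 11.3 RPM. All 3 were thus read in mouse PGCLC. Slc41a3 had 0 RPM in both day 4 libraries and 0.84 and 0.81 RPM on day 6. Levels in different species and annotations were not tested against each other.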

How the data were processed

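RNA of 38 monkey and 4 mouse libraries was read from 3′ ends, per the labels' protocols, and the authors deposited 1 table per species in RPM, in which reads are scaled to the same total in every library. The submitters' processing notes list TopHat 1.4.1, Cufflinks 2.2.0, cutadapt 1.3 and, as the only build, the mouse one (GRCm38). A monkey build is not named there, and no coordinates are printed. Low values were whole multiples of the RPM of 1 read (99.4% to 99.8% within 0.1 steps), from which reads were recovered for counting intervals, edgeR and DESeq2; depth ranged from 1.08 to 7.46 M reads. Intervals and floors cover counting error only.

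The members and the gene lists were chosen with earlier results of these data known, and the 6 libraries whose PRDM1 contradicts the gate were left out of tests for the same reason. Groups followed the labels. Tests used limma 3.58.1 in R 4.3.3, with its trend option, on log2(RPM + 1) of entries with at least 10 RPM in at least 2 libraries of the fit, fitted on the whole table with all groups together (BTAG positive libraries alone for the slope). A call needs a Benjamini-Hochberg adjusted p under 0.05 and a log2 difference of at least 1 (over 8 days for the slope). Fold changes on this scale understate those of low genes. Named were all members, up to 4 called genes of each list, called neighbours within 5 places, and the 2 most and 1 least alike entries of each member. Alternatives were pseudocounts of 0.1 and 10, other filters, median-of-ratios scaling, edgeR 4.0.16, DESeq2 1.42.0, the title code as a covariate, other sets of libraries, and each library left out; the scripts were tested on simulated data. Reads of overlapping genes or near-identical copies could be split, since how the authors counted, and whether by strand, was not stated. One endoderm marker of the planned list is not reported here and was left out of the summed level.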

Additional observations from a re-analysis of the deposited data

Results flagged for a closer look

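In groups of 4 to 10 libraries, 9 combinations of member and group held a library far from the rest; chance gives about 1 in 20 where values vary, which does not apply to genes near 0, where any single read stands apart. For ERP29, VAPB and INSR these were single libraries above 0 among others at 0: ERP29 at 0.13 RPM and INSR at 0.13 RPM in aRB27 BTAG day 6 library 2, VAPB at 1.17 RPM in aRB27 BTAG day 6 library 3 and at 0.15 RPM in reporter ESC library 1, and INSR at 0.54 RPM in reporter ESC library 4. Each of these rests on 1 or 2 reads. SLC41A3 stood out at 5.28 RPM in aRB27 BTAG day 6 library 3, where the next library had 0.42 RPM. SERPINB6 was high at 7.19 RPM in aRB27 BTAG day 6 library 1, with the next at 5.29 RPM. GJC1 was high at 75.96 RPM in reporter ESC library 4, with the next at 49.1 RPM, and PHLDA1 was low at 28.76 RPM in the transgene-free line 681F, with the next at 40.8 RPM.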

How the results depend on the processing

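No member changed sign in a called result under any alternative run. In the tested comparisons 901 of 923 values of members under alternatives stayed on their side of the threshold with the same direction, 17 were no longer called and 5 became called. This count, and those below of values that stayed, include the 4 near-zero genes. Those genes were near 0 on both sides of a comparison, so their staying uncalled says nothing about stability. With 24 reporter-line libraries, leaving out the 9 whose group changes if the names are read in alphabetical order (a set chosen after seeing the data), 45 of 45 stayed. With the title code as a covariate (also added after seeing the data; day 6, media and slope), 34 of 35 stayed, and the slope of SERPINB6 became called (-0.169). PHLDB2 on day 6 in GK15 was not called with a pseudocount of 10 (-0.90) or without a filter (adjusted p = 0.053, limma). The slope of GJC1 fell short of a 2-fold change over 8 days with a pseudocount of 10 (-0.113), median-of-ratios scaling (-0.123), edgeR (-0.122) and DESeq2 (-0.124). Calls were gained by SERPINB6 for the slope as labelled (-0.236) and without GK15 BTAG day 6 library 1 (-0.193), by PHLDB2 for the slope without the aRB27 day 10 library (-0.149) and by PHLDA1 in BT cells without aRB27 BTAG day 2 library 1 (-1.41). The log2 difference of MAL2 in BT cells was 2.51 with a pseudocount of 10, 6.86 with 0.1, 6.45 by edgeR and 6.59 by DESeq2.

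Counts over all entries moved more. Between reporter and transgene-free ESC 322 were called, 152 with a pseudocount of 10, 156 with a mean of at least 20 RPM and 529 by DESeq2, and 89 to 518 with a library left out (89 without reporter ESC library 4, 181 without 2, 208 without 1, 518 without line 656). On day 6 in GK15 2440 were called, 1326 with the mean filter, 1 as labelled and 1624 to 2341 with a library left out (1624 without GK15 library 1). In aRB27 2760 were called, 1604 with a pseudocount of 10, 1461 with the mean filter and 2566 to 2677 with a library left out. Between media 3 were called, 16 with a pseudocount of 10, 36 without a filter, 26 by DESeq2 and 1 to 18 with a library left out. In BT cells 1415 were called, 713 with the mean filter, 599 as labelled and 1109 to 1380 with a library left out. For the slope 1612 were called, 946 with a pseudocount of 10, 890 with the mean filter and 1210 to 1936 with a library left out. Between the 2 reporter lines 0 were called, and 0 to 1 with a library left out. The members whose line groups do not overlap numbered 4, 6 with the 27 libraries that match their gate, 5 against line 656 alone, 9 with reporter ESC alone and 4 to 5 with a transgene-free library left out. The cause of these shifts was not tested.

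No paired analysis was possible because the labels give no replicate numbers shared between groups; the title code, which marks no pairs, was used as a covariate instead. The levels of ERP29, VAPB and INSR above 0 in reporter-line libraries rest on 1 or 2 reads each. Differences among reporter-line libraries in these genes were therefore not detectable at this depth. SLC41A3 reached 9 reads, at 5.28 RPM, in aRB27 BTAG day 6 library 3.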

Other observations

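When the 33 reporter-line names are read in alphabetical order over the columns, 3 libraries take the line name 656BTAG63, and these are the 3 that hold 3 or more reads of SLC41A3 (5.28, 2.49 and 1.25 RPM). As labelled, 1 of these 3 belongs to 656BTAG63. The levels in the other 30 libraries were 0 to 0.42 RPM. The 6 libraries whose PRDM1 goes against the gate are all among the 9 whose group changes under this reading. Each of the 6 then takes a label that its PRDM1 level matches. This reading of the names was found after the values were seen and was not tested.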
